A study of Mus musculus with 7 samples.

Results

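Thymic epithelial cells that express high levels of the chemokine gene *Ccl21a* carried RNA of insulin-like growth factor (IGF) binding proteins and of smooth muscle contractile proteins. The set holds 9 of the 20839 genes listed in any library: the 5 IGF-binding protein genes *Igfbp2*, *Igfbp3*, *Igfbp4*, *Igfbp5* and *Igfbp7*, and the 4 genes of the actin cytoskeleton *Acta2*, *Tagln*, *Myl9* and *Gsn*. The genes were selected on their measured levels, detection and co-detection by cell gate and by week in these same libraries, so these values are given as a description, with no test. Cells were gated on the deposited scale, the natural log of 1 plus the unique molecular identifiers (UMIs, each a single captured RNA molecule) per 10000 UMIs of the cell. The *Ccl21a* gate took cells above 4, the *Aire* gate cells above 1.5, and the cortical gate cells with at least 2 of *Psmb11*, *Ackr4* and *Prss16* above 0, all with no UMI of the leukocyte gene *Ptprc*.

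The series holds 7 droplet libraries of EpCAM+ CD45- sorted mouse thymus cells, each from 3 pooled thymi, with 1 library per group. The lineage tracing library came from Aire-CreERT2-R26-CAG-Stopfl-zsGreen mice of the C57BL/6 strain, aged 6 weeks. They had been given 2 mg of tamoxifen on alternate days over 10 days, so that ZsGreen marks cells in which *Aire* drove the Cre recombinase at that time and their progeny. The other 6 libraries came from C57BL/6 mice given 3 injections of 100 µg of antibody within 1 week, either an isotype control or anti-RANKL, which blocks a cytokine that medullary epithelium needs for the *Aire* lineage. Isotype libraries were collected at week 2 (age 4 weeks) and week 10 (age 12 weeks), and anti-RANKL libraries at week 2 (age 4 weeks), week 4 (age 6 weeks), week 6 (age 8 weeks) and week 10 (age 12 weeks). Week 4 and week 6 have no isotype library of their own, and the lineage tracing mice differ from the others in genotype, treatment and age.

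IGF-binding proteins are secreted proteins that hold IGF-I and IGF-II away from, or deliver them to, the IGF receptor, and proteases that cut them set the ligand free. Smooth muscle actin, transgelin and the myosin regulatory light chain build actomyosin bundles, in muscle of vessel walls and also in myoepithelial and other contractile epithelial cells. Their genes are classic targets of serum response factor (SRF), which binds a short sequence called the CArG box. In the thymus, *Ccl21a*-expressing medullary cells attract T cells from the cortex, while *Aire*-expressing medullary cells display tissue antigens to them.

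The promoters that hold a CArG-type sequence are shown first because no other sequence feature was looked for among the members. In the 250 bases before each start listed by RefSeq (GRCm38.p6), 8 of the 9 genes had an entry in the table used here, and *Tagln* was not analysed. A CArG box (CC, 6 bases that are A or T, GG, a pattern that matches on both strands or on neither) stood in 1.47% of 32851 mouse promoters, and the same sequence with 1 of its 6 middle bases not A or T in 7.24%. *Myl9* had both forms, *Acta2* had 2 of the second form, and the most upstream of 3 *Gsn* promoters had 1 of the second form. The 5 IGF-binding protein genes had none in this window. Each sequence below runs 5′ to 3′ on the gene's strand, 30 bases with the box in capitals. Both *Acta2* stretches lie inside the gene as GENCODE draws it, which starts further upstream than the RefSeq entry.
*Myl9*, full box, chr2:156775293-156775322, + strand: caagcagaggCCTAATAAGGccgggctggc
*Myl9*, second form, chr2:156775355-156775384, + strand: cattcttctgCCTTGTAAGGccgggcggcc
*Acta2*, second form, chr19:34255438-34255467, - strand: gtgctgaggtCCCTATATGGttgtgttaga
*Acta2*, second form, chr19:34255388-34255417, - strand: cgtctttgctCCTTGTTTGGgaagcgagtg
*Gsn*, second form, chr2:35256187-35256216, + strand: gactcagtttCCTTCTATGGaccgcagaga
The full box of *Myl9* began 161 bases before the start and its second form 99 bases, and the 2 boxes of *Acta2* began 84 and 34 bases before theirs. A match is a description of letters and not a measured binding site.

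By the GENCODE annotation of GRCm38, *Igfbp2* (chr1:72824503-72852474, + strand) and *Igfbp5* (chr1:72857932-72874884, - strand) are neighbours. *Igfbp3* lies at chr11:7206086-7213923 and *Igfbp4* at chr11:99041244-99054392. *Acta2* lies at chr19:34241090-34255590, *Myl9* at chr2:156775420-156781658 and *Gsn* at chr2:35256380-35307892. *Igfbp7* (chr5:77349240-77408041) overlaps *Polr2b* on the other strand, and *Tagln* (chr9:45929619-45936058) overlaps *Pcsk7* on the other strand. *Gsn* overlaps the unclassified gene model *Gm43128* on its own strand, and it was not tested whether reads of these neighbours entered their counts.

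The 7 libraries held 8453 cells, 730 to 1475 per library, at a median depth of 4299.5 UMIs per cell at week 6 to 16809 in the week 2 isotype library. Of them, 8220 had no *Ptprc* UMI, of which 3451 passed the *Ccl21a* gate, 1769 the *Aire* gate and 1029 the cortical gate, while 2537 passed none. The *Ccl21a* gate held 160 cells of the week 2 isotype library, 208 of the week 10 isotype library, 684, 944, 334 and 246 at weeks 2, 4, 6 and 10 of anti-RANKL, and 875 of the lineage tracing library. The *Aire* gate held as few as 62 cells at week 2 of anti-RANKL and 22 at week 4, against 456 and 549 in the isotype libraries. Gates overlapped: 15.6% to 58.4% of cortical-gate cells also passed the *Ccl21a* gate. All 6 epithelial markers fixed for the check (*Epcam*, *Krt8*, *Krt18*, *Krt5*, *Krt14*, *Cdh1*) had UMIs in the *Ccl21a* gate of every library, at a summed 65.1 to 98.9 UMIs per 10000. Of all cell barcodes, 50 occurred in more than 1 library.

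The week 6 library stood apart. Its *Aire*-gate cells held more UMIs of the members than those of any other library for 8 of the 9 genes (*Tagln* 2.18 UMIs per 10000 against 0.0898 to 1.91), and all 6 of its T cells (cells with *Ptprc* and at least 2 of 4 T cell receptor complex and signalling genes), at a median of 11177 UMIs, had a *Tagln* UMI. After thinning every cell at random to 2000 UMIs, 33.3% of those T cells and 28.2% of week 6 *Aire*-gate cells still had one, against 71.9% of *Ccl21a*-gate cells of that library. Week 4, the other shallow library, had 13.6% of 22 *Aire*-gate cells with a thinned *Tagln* UMI. Folds between gates, counts of genes past 2-fold, pair ratios in single cells and the comparison of cells by their contractile genes were therefore also taken over the other 6 libraries, and the values that moved by more than 1.5 times are given beside the result. With 1 library per group no spread between libraries of a group can be had, so no p-value is given, and all intervals are exact 95% intervals (Poisson for levels, Clopper-Pearson for shares, conditional for folds) that cover counting error only.

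Of the 9 genes, 8 stood at least 2-fold higher in the *Ccl21a* gate than in the *Aire* gate in every one of the 7 libraries, all but *Igfbp7*. The same held for 4.15% of the 8479 genes with enough UMIs, and 3.7% were at least 2-fold lower throughout. Since the members had been picked for these levels, the count of 8 of 9 is no result about them. Levels are summed UMIs of a gate's cells per 10000 UMIs of those cells. As a mean over cells only 4 genes passed, with *Igfbp3*, *Igfbp4*, *Igfbp5* and *Gsn* at lowest folds of 1.31 to 1.90, and in thinned cells 6 did, without *Igfbp3* and *Gsn*. Without the week 6 library the count was the same 8, against 4.68% of 10210 genes (3.83% lower).

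**Figure D1:**
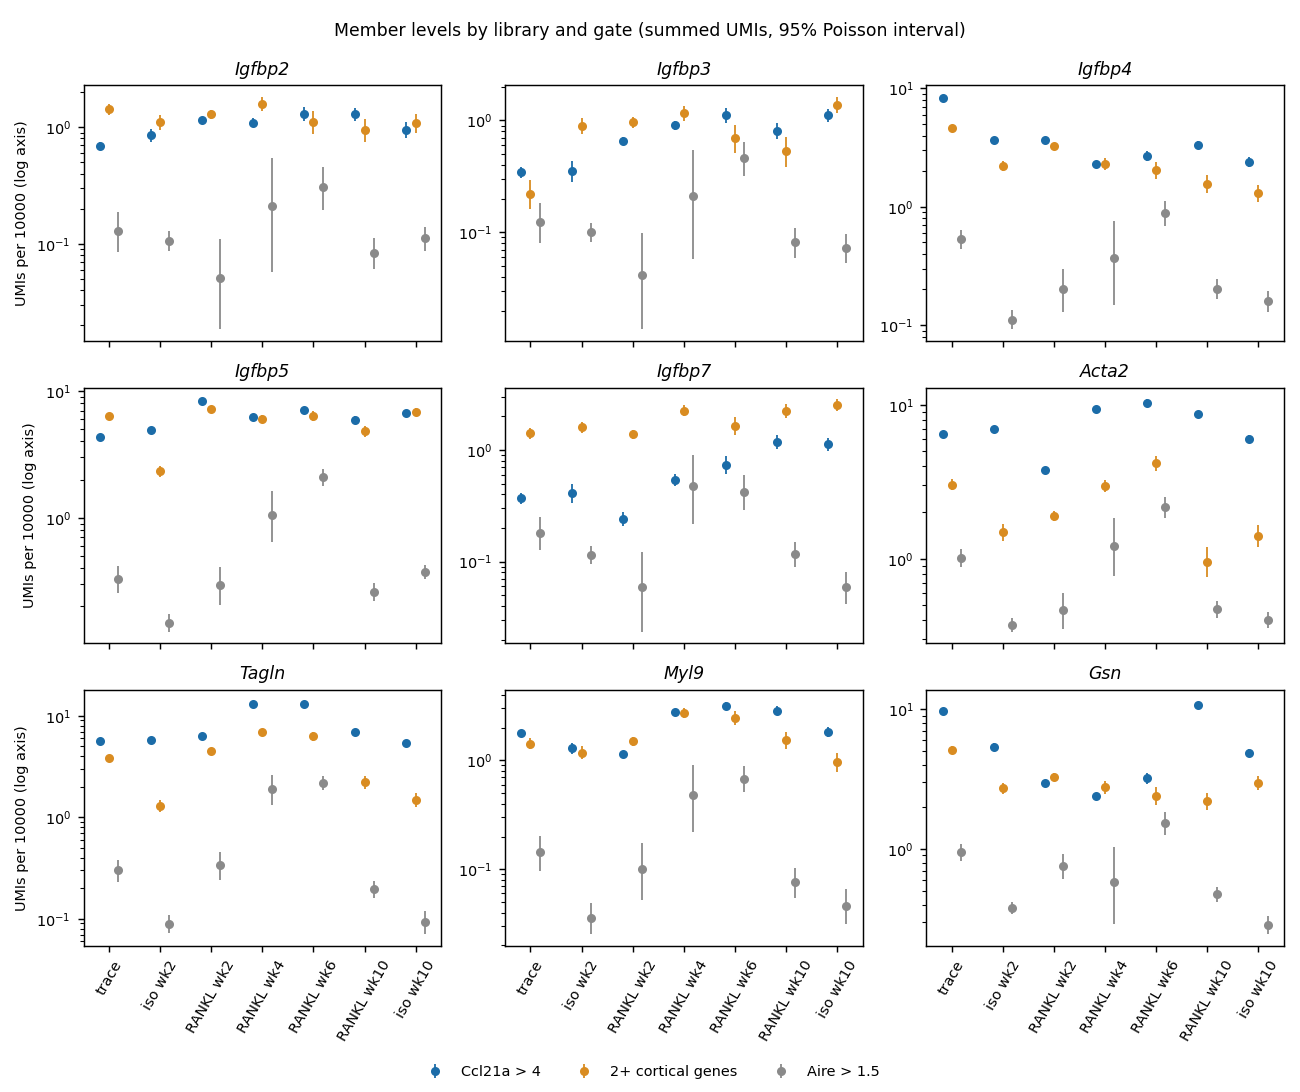
Levels of the 9 genes in UMIs per 10000 (log axis) in each library, by gate: *Ccl21a* above 4 (blue), at least 2 cortical genes (orange) and *Aire* above 1.5 (grey). Bars are 95% Poisson intervals. The grey points lie lowest in nearly every library and are highest at week 6 in 8 of the 9 panels, and *Igfbp7* is the panel in which the orange points lie above the blue ones in every library.

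*Tagln* encodes transgelin, an actin-binding protein of smooth muscle. In the *Ccl21a* gate it stood at 5.72 and 5.39 UMIs per 10000 in the week 2 and week 10 isotype libraries, 6.32, 12.9, 13.1 and 6.99 at weeks 2, 4, 6 and 10 of anti-RANKL, and 5.71 in the lineage tracing library. Weeks 4 and 6 were the high libraries, and their counting intervals overlapped, as did those of the isotype and lineage tracing libraries. The *Aire* gate held 0.0898 and 0.0927 UMIs per 10000 in the isotype libraries, so the fold between the gates was 63.7 in the week 2 isotype library, 6.01 at its lowest (week 6) and 19.0 at the median.

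*Acta2*, smooth muscle actin, stood at 6.94 and 5.99 UMIs per 10000 in the *Ccl21a* gate of the week 2 and week 10 isotype libraries, 3.80, 9.41, 10.3 and 8.73 at weeks 2, 4, 6 and 10, and 6.44 in the lineage tracing library. The week 2 anti-RANKL library was the lowest of the 7 and week 6 the highest. Its fold over the *Aire* gate ran from 4.79 to 18.7 with a median of 8.25. *Myl9*, the regulatory light chain that switches on the myosin motor, followed at 1.29 and 1.83 in the isotype libraries, 1.16, 2.77, 3.15 and 2.86 along the anti-RANKL weeks, and 1.78 in the lineage tracing library, with folds of 4.66 to 39.4 (median 12.4, or 24.2 without week 6). The low library was again week 2 of anti-RANKL, whose interval overlapped that of its isotype control.

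*Gsn* encodes gelsolin, which severs and caps actin filaments in response to calcium. It stood at 5.41 and 4.87 UMIs per 10000 in the isotype libraries, 2.97, 2.39, 3.22 and 10.8 at weeks 2, 4, 6 and 10 of anti-RANKL, and 9.82 in the lineage tracing library. Its order across libraries differed from that of *Tagln*: weeks 4 and 6, where *Tagln* was high, were among the 3 lowest for *Gsn*, and week 10 of anti-RANKL and the lineage tracing library were high. The fold over the *Aire* gate was 2.10 at week 6, at least 3.94 in the other libraries and 10.4 at the median.

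Among the IGF-binding proteins, *Igfbp5*, a secreted protein that also binds extracellular matrix, stood at 4.90 and 6.71 UMIs per 10000 in the *Ccl21a* gate of the isotype libraries, 8.38, 6.28, 7.04 and 5.95 along the anti-RANKL weeks and 4.34 in the lineage tracing library. Week 2 of anti-RANKL was highest, and the lineage tracing library lowest. Its fold over the *Aire* gate had a median of 18.0 (3.38 to 33.0), with 5.93 as the lowest outside week 6.

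*Igfbp4*, which holds IGF until a protease of the pappalysin family cuts it, stood at 3.68 and 2.41 in the isotype libraries, 3.66, 2.31, 2.69 and 3.35 along the anti-RANKL weeks and 8.27 in the lineage tracing library. The lineage tracing library was set apart from the other 6, which lay between 2.31 and 3.68. The fold over the *Aire* gate had a median of 15.5 (3.05 to 33.0), with 6.22 as the lowest outside week 6.

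*Igfbp2*, another IGF carrier, was low, at 0.851 and 0.949 in the isotype libraries, 1.16, 1.10, 1.31 and 1.28 along the anti-RANKL weeks and 0.693 in the lineage tracing library. Its anti-RANKL values were all above both isotype values, although the intervals at weeks 2 and 4 (1.08 to 1.23 and 1.01 to 1.19) overlapped that of the week 10 isotype library (0.815 to 1.10). The median fold over the *Aire* gate was 8.04 (4.26 to 23.0).

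*Igfbp3*, the main IGF carrier of serum, and *Igfbp7*, a relative that binds IGF weakly, were carried by few cells. *Igfbp3* stood at 0.355 and 1.11 in the isotype libraries, 0.661, 0.906, 1.11 and 0.807 along the anti-RANKL weeks and 0.343 in the lineage tracing library. Its median fold over the *Aire* gate was 4.28, or 7.08 without week 6. The isotype libraries differed from each other by more than either differed from its anti-RANKL partner. In the week 2 isotype library 20 of 160 *Ccl21a*-gate cells had an *Igfbp3* UMI, the 10% of cells with most of them held 95.5%, and a single cell held 51. *Igfbp7* stood at 0.407 and 1.12 in the isotype libraries, 0.241, 0.541, 0.736 and 1.18 along the anti-RANKL weeks and 0.369 in the lineage tracing library, and 10% of the cells held 73.1% to 93.3% of its UMIs.

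Where *Igfbp7* differed from the other 8 genes was in the cortical gate. It stood there at 1.59 and 2.50 UMIs per 10000 in the isotype libraries, 1.38, 2.24, 1.63 and 2.22 along the anti-RANKL weeks and 1.40 in the lineage tracing library, above its *Ccl21a*-gate level in all 7 libraries. The fold of the *Ccl21a* gate over the cortical gate was 0.263 at the median (0.174 to 0.533), with the interval below 1 in 7 of 7 libraries. *Acta2* and *Tagln* went the other way, at median folds of 3.16 (2.00 to 9.13) and 2.10 (1.40 to 4.39) and with the interval above 1 in 7 of 7. With the cells that pass both gates left out, the median folds became 0.126 for *Igfbp7*, 5.13 for *Acta2* and 2.73 for *Tagln*, and each kept its direction in every library.

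*Igfbp2*, *Igfbp3*, *Igfbp5* and *Myl9* had no common direction between those gates: the *Ccl21a*-gate level of *Igfbp5* over the cortical-gate level ran from 0.688 to 2.10, with the interval above 1 in 3 libraries and below 1 in 1. In cells of exactly 1 gate *Igfbp2* had a median fold of 0.669, with the interval below 1 in 5 libraries and above 1 in 0. *Igfbp3*, *Igfbp5* and *Myl9* still had intervals on both sides of 1. *Igfbp4* stood higher in the *Ccl21a* gate in 6 of 7 by its interval (median fold 1.67), but in cells of exactly 1 gate in only 3, with 3 in the opposite direction. Against the *Aire* gate, 6 of the 9 genes stood at least 2-fold higher in the cortical gate in all 7 libraries, against a background of 3.28% of 6460 genes (0.666% lower). *Igfbp3*, *Acta2* and *Gsn* were the other 3, and without the week 6 library the count was 8, with only *Igfbp3* left out, against 5.5% of 7385 genes (0.799% lower). The lowest fold then rose from 1.56 to 4.36 for *Gsn*, from 2.32 to 6.23 for *Igfbp4*, from 3.59 to 7.51 for *Igfbp2*, from 3.05 to 5.68 for *Igfbp5* and from 3.60 to 5.72 for *Myl9*. Since the members had been picked on levels in these gates too, the counts of 6 and 8 are no result about them.

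Levels were also taken by the *Ccl21a* value of the cell. The median *Tagln* level was 1.497 at a value up to 2 (0.210 to 6.11 over the libraries) and 0.756 at 2 to 3, so it did not rise throughout. At a value of 3 to 3.5, below the cutoff of 4, the median *Tagln* level of the libraries was 0.522 UMIs per 10000, and it was 2.61 at 4 to 4.5, 4.44 at 4.5 to 5 and 7.84 above 5. *Acta2* went from 0.757 over 2.55 and 4.41 to 8.79 in the same bins. In the bin just below the cutoff, from 3.5 to 4, only weeks 2, 4 and 6 of anti-RANKL had 20 cells (92 together), with *Tagln* at 1.84, 7.19 and 5.26 and *Acta2* at 0.461, 3.19 and 3.92. These 3 libraries are not the same set as in the other bins, so no order across the cutoff is read from it. *Igfbp5* was less graded, at 2.73, 4.58, 4.60 and 6.74, and *Igfbp7* was not, at 0.287, 0.864, 0.503 and 0.477, with its highest median, 1.10, at a value up to 2.

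On the side of *Aire*, the median level of *Tagln* over 7 libraries was 4.48 UMIs per 10000 in cells with no *Aire* and 1.76 at a value up to 1. Over 6 libraries it was 0.618 (0.216 to 6.91) at 1 to 1.5, just outside the gate. It was 0.226 (0.115 to 2.87) at 1.5 to 2, just inside the gate, also over 6 libraries. *Acta2* had 3.88, 2.59, 0.814 and 0.381 in those bins. The sets of libraries thus differ between the bins. The gated genes *Ccl21a* and *Aire* themselves are what the gates were cut on and are not read here.

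**Figure D2:**
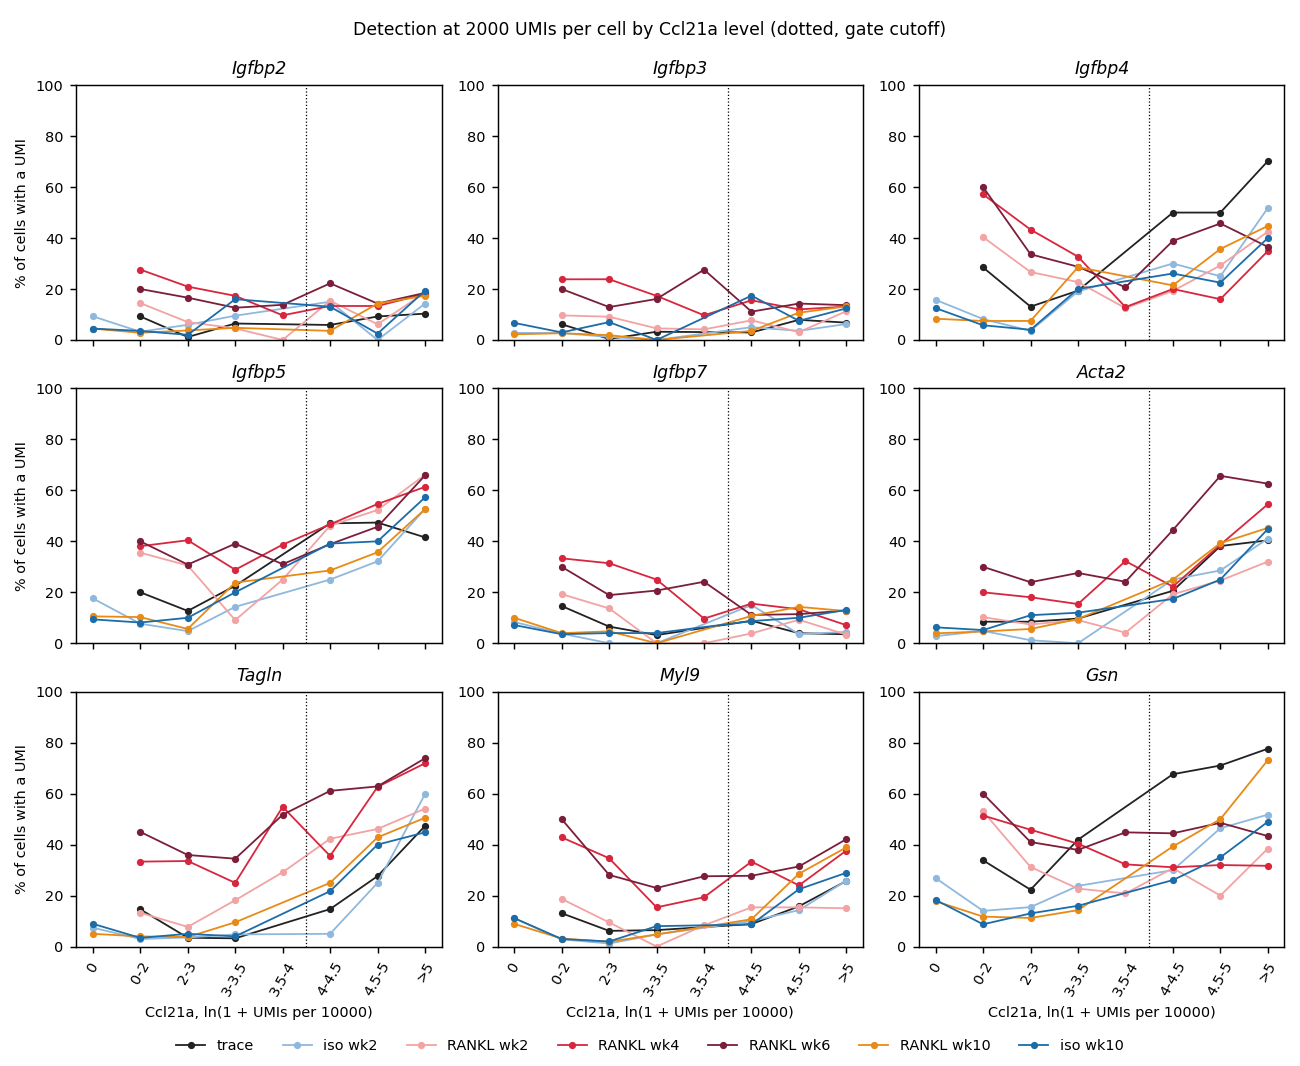
Percent of cells with a UMI of each gene after thinning every cell to 2000 UMIs, by the *Ccl21a* value of the cell on the natural log scale, one line per library and only bins of at least 20 cells. The dotted line is the cutoff at 4. From a value of 3 upward *Tagln*, *Acta2* and *Igfbp5* rise in most libraries (*Tagln* above 5: 44.8% to 73.9%). Further left the median share is higher up to 2 than at 2 to 3 for *Tagln* (13.3% and 5.0%) and *Igfbp5* (20.0% and 12.7%). The lines of weeks 4 and 6 (red tones) start higher on the left for *Tagln* and *Myl9*.

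Detection varied between libraries. *Tagln* had a UMI in 61.4% to 81.5% of *Ccl21a*-gate cells, *Acta2* in 52.4% to 73.1%, *Myl9* in 48.5% to 60.8% and *Gsn* in 50.1% to 96.1%. *Igfbp5* was detected in 68.9% to 91.8%, *Igfbp4* in 53.7% to 90.5%, *Igfbp2* in 27.4% to 43.7%, *Igfbp3* in 12.5% to 26.9% and *Igfbp7* in 12.6% to 26.4%. Depth differs between the libraries (median 4372 to 14340.5 UMIs per *Ccl21a*-gate cell), so the shares were also taken at 2000 UMIs.

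At that fixed depth *Tagln* was detected in 41.3% to 71.9% of *Ccl21a*-gate cells and in 1.09% to 28.2% of *Aire*-gate cells. T cells, which should lack these genes, numbered 4 to 18 per library, with no thinned *Tagln* UMI in 4 of the 7 libraries and in 14.3% to 33.3% of 6 or 7 cells in the other 3. *Igfbp7* was detected in 3.77% to 12.6% of *Ccl21a*-gate cells and in 0.911% to 9.71% of *Aire*-gate cells at 2000 UMIs, so that its week 6 shares, 12.6% and 9.71%, lay close to each other. Of the 6 T cells of that library 33.3% had an *Igfbp7* UMI at that depth, and the part of such RNA in the week 6 shares was not tested.

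Anti-RANKL was compared with its isotype control at week 2 and week 10, within the *Ccl21a* gate. A pair of pools was compared each time, so these folds describe libraries and not the treatment. At week 2, 2 of 9 genes stood at least 1.5-fold higher (*Igfbp3* and *Igfbp5*; 15.0% of 12170 genes did) and 3 at least 1.5-fold lower (*Igfbp7*, *Acta2* and *Gsn*; 9.5% of genes did). At week 10, 2 stood higher (*Myl9* and *Gsn*; 11.5% of 10138 genes did) and none lower (9.17% of genes did). Between the 2 isotype libraries, which differ in age and depth, 2 members stood higher at week 10 (*Igfbp3* and *Igfbp7*; 12.3% of 10394 genes did) and 1 lower (*Igfbp4*; 7.94% did). Higher genes thus numbered 2 in each of these comparisons. Lower genes numbered 3 at week 2, 0 at week 10 and 1 between the controls.

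The sizes at week 2 were as follows. *Acta2* stood at 0.548 of its isotype level (95% interval 0.517 to 0.582) and *Gsn* at 0.549 (0.513 to 0.587). *Igfbp5* stood 1.71-fold higher (1.61 to 1.82), and its fold between the isotype libraries was 1.37. *Tagln* differed little, at 1.10-fold, and *Igfbp4* had the same level in both, at 0.995-fold (0.924 to 1.07). Both the *Acta2* and the *Gsn* difference were larger than that between the isotype libraries (0.863 and 0.899), and both remained past 1.5-fold when week 2 was set against the week 10 isotype library (0.635 and 0.610). They fell short of 1.5-fold under 1 other alternative each: *Acta2* stood at 0.704 when cells with UMIs of at least 2 stromal genes other than *Dcn*, *Rgs5* and *Myh11* were left out, and *Gsn* at 0.711 when those 3 genes were counted too. The higher genes did not stay 1.5-fold higher against the week 10 isotype library. *Igfbp5* stood at 1.25 there. *Igfbp3*, at 1.86-fold of its own control, stood at 0.594, which is past 1.5-fold in the opposite direction.

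At week 10 *Gsn* stood 2.22-fold above its isotype level (2.05 to 2.41) and 2.00-fold above the week 2 isotype library. *Acta2* stood 1.46-fold higher (1.35 to 1.58), *Myl9* 1.57-fold (1.36 to 1.80), *Tagln* 1.30-fold (1.19 to 1.41) and *Igfbp4* 1.39-fold (1.23 to 1.58). *Igfbp3* stood at 0.725 (0.582 to 0.901) and *Igfbp5* at 0.887. The share of *Ccl21a*-gate cells with a *Gsn* UMI at 2000 UMIs was 66.7% at week 10 of anti-RANKL and 43.8% in its isotype control. T cells of these libraries also held *Gsn*, at 1.95 and 1.24 UMIs per 10000 in 4 and 11 cells. *Gsn* was the only gene that kept its 1.5-fold difference at week 10 under every alternative tried.

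**Figure D3:**
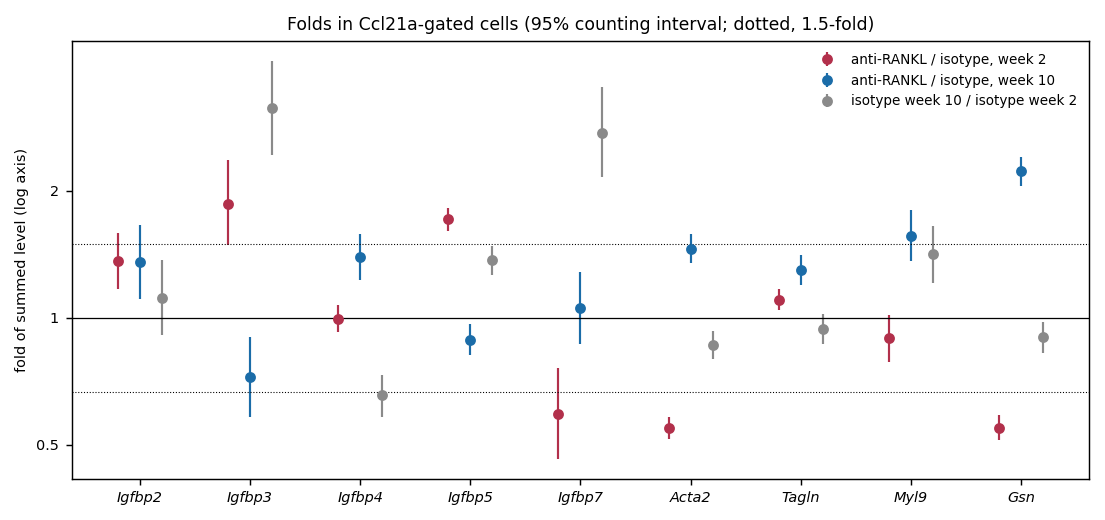
Fold of the level in *Ccl21a*-gated cells (log axis) between anti-RANKL and isotype at week 2 (red) and week 10 (blue), and between the 2 isotype libraries (grey), with 95% counting intervals and dotted lines at 1.5-fold. *Acta2* and *Gsn* lie below 1 at week 2 and above 1 at week 10, and *Igfbp3* and *Igfbp7* have the highest grey points (3.14 and 2.75).

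Along the 4 anti-RANKL weeks *Tagln* and *Acta2* in the *Ccl21a* gate were highest at weeks 4 and 6. *Myl9* stood at 2.77, 3.15 and 2.86 at weeks 4, 6 and 10 against 1.16 at week 2, and *Gsn* was lowest at week 4. In cells that passed no gate, *Tagln* also stood higher there, at 3.86 and 5.00 UMIs per 10000 against 0.228 to 0.730 in the other 5 libraries, and *Myl9* at 2.85 and 2.57 against 0.176 to 0.530. The week 4 and week 6 values in the *Ccl21a* gate were thus measured in libraries whose other cells held more of the same RNAs, and the part this has in them was not tested. For *Gsn* the cells of no gate stood at 5.74 at week 4, above the 2.39 of the *Ccl21a* gate.

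Over all cells with no *Ptprc*, the level of a gene joins the number of *Ccl21a*-gated cells with their RNA content, and fewer such cells cannot be told apart from less RNA per cell. *Ccl21a*-gated cells made up 14.2% of the week 2 isotype library and 57.8% of the week 2 anti-RANKL library. *Tagln* over the whole library was 4.69-fold higher at week 2 of anti-RANKL (1.10-fold within the gate), *Igfbp5* 6.06-fold (1.71-fold within) and *Acta2* 2.15-fold (0.548 within). The direction for *Acta2* and *Gsn* (2.08-fold over the library, 0.549 within the gate) was thus opposite on the 2 scales. At week 10, with 246 of 1172 and 208 of 1247 cells in the gate, the whole-library folds of the 9 genes lay between 0.761 (*Igfbp3*) and 1.75 (*Gsn*).

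*Ccl21a*-gated cells held most of the *Tagln* and *Acta2* of every library, 70.6% to 92.0% and 66.4% to 92.8% of the UMIs. They held 16.3% to 50.1% of the *Igfbp7*. For *Gsn* the share ran from 38.5% in the week 2 isotype library to 86.7% in the lineage tracing library.

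In single *Ccl21a*-gated cells at 2000 UMIs, the contractile genes occurred together more often than their separate shares give. *Acta2* and *Tagln* shared cells 1.43 times as often as the product of their shares at the median of the libraries, *Acta2* and *Myl9* 1.44 times and *Tagln* and *Myl9* 1.41 times, each above 1 in 7 of 7 libraries. Over all libraries 1064 cells held both *Acta2* and *Tagln* where 817 would be the product. At full depth the same 3 pairs had smaller ratios, at 1.15, 1.22 and 1.17, each above 1 in 7 of 7. *Gsn* was near 1 with all 3 (1.05 to 1.07).

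*Igfbp7* shared cells with *Acta2* at 0.534 and with *Tagln* at 0.722 of the product, above 1 in 0 of 7 libraries, on 61 and 98 shared cells. At full depth these stood at 0.791 and 0.931, each above 1 in 1 of 7. With *Myl9* it stood at 0.984 (above 1 in 3 of 7), and at 1.08 at full depth (6 of 7). Among the IGF-binding proteins, *Igfbp2* with *Igfbp3* stood at 1.79 (above 1 in 6 of 7, on 102 cells) and *Igfbp3* with *Igfbp7* at 1.63 (5 of 7, on 49 cells). Without week 6 their order was the other way round, at 1.91 and 2.05. *Igfbp3* also ran with *Gsn* (1.38, 7 of 7), and *Igfbp4* with all 4 cytoskeletal genes (1.08 to 1.14, each 7 of 7). *Igfbp2* with *Myl9* was as high as the contractile pairs, at 1.44 (6 of 7), and it ran with *Gsn* at 1.203 and with *Tagln* at 1.14 (both 7 of 7). *Igfbp5* was near 1 with *Acta2*, *Tagln* and *Gsn* (0.952 to 1.01).

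**Figure D4:**
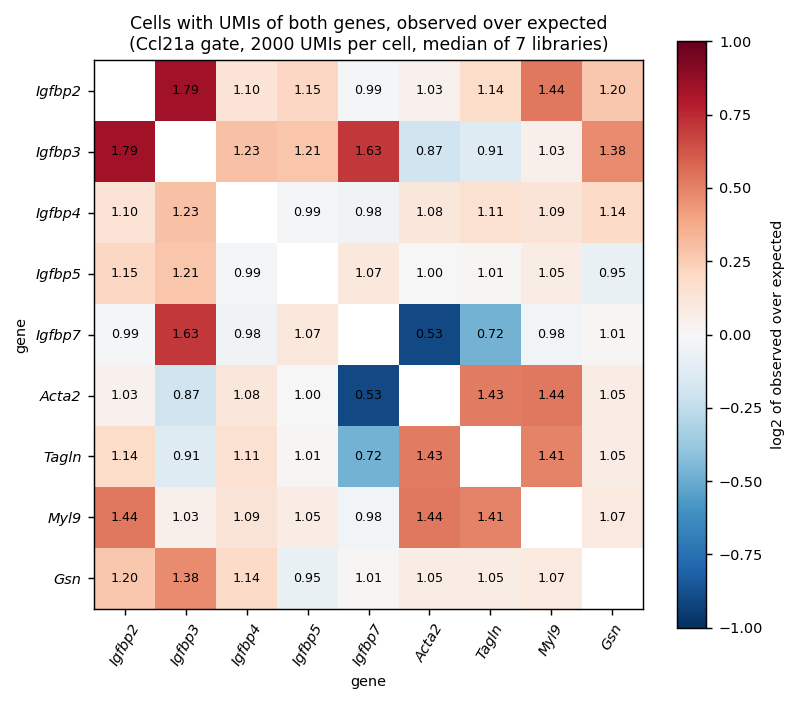
Observed over expected number of *Ccl21a*-gated cells with UMIs of both genes at 2000 UMIs per cell, as the median of 7 libraries, in numbers and in colour (log2 scale). The block of *Acta2*, *Tagln* and *Myl9* stands at 1.41 to 1.44, as does *Igfbp2* with *Myl9* at 1.44, and *Igfbp7* with *Acta2* at 0.53 is the lowest pair.

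All 3 of *Acta2*, *Tagln* and *Myl9* had a UMI at 2000 UMIs in 8.75% and 10.6% of *Ccl21a*-gated cells of the week 2 and week 10 isotype libraries, in 6.43%, 22.4%, 25.8% and 17.1% at weeks 2, 4, 6 and 10 of anti-RANKL, and in 11.5% of the lineage tracing library. Weeks 4 and 6 were highest and week 2 of anti-RANKL lowest. Together 495 cells held all 3 and 991 held none.

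The 495 cells were compared with the 991 by genes the grouping did not use, at full depth. *Krt14*, a keratin of basal epithelial cells, stood at a median of 26.4 UMIs per 10000 against 13.8, higher in 7 of 7 libraries with the intervals apart in all. *Tpm2*, a tropomyosin of muscle filaments, had 16.4 against 8.09 and *Cald1*, the actomyosin regulator caldesmon, 6.53 against 3.24, again with intervals apart in 7 of 7. *Krt5*, the partner keratin of *Krt14*, had no common direction (18.3 against 18.0, higher in 5 and lower in 2). *Ccl21a* itself stood at 313 against 256, higher in 6 of 7, so the groups also differed in the gene of the gate. *Epcam* did not differ in a common direction (7.68 against 7.42, higher in 4 and lower in 3). *Myh11*, the smooth muscle myosin heavy chain, was higher in all 7 at 0.805 against 0.292.

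Of the members, *Igfbp2* (1.82 against 0.785) and *Igfbp4* (5.34 against 2.35) were higher in cells with all 3 in 7 of 7 libraries, with intervals apart in 6 of them. *Igfbp7* was lower in 6 of 7 (0.425 against 0.707). *Igfbp5* and *Igfbp3* had no common direction. The cortical genes *Prss16*, a protease of cortical epithelium (0.318 against 2.33), and *Psmb11*, the thymoproteasome subunit (0.106 against 0.715), were lower in cells with all 3 in 7 of 7 libraries. *Ackr4*, the other gene of the cortical gate, was lower in 6 and higher in 1 (0.0740 against 0.160), with intervals apart in none.

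**Figure D5:**
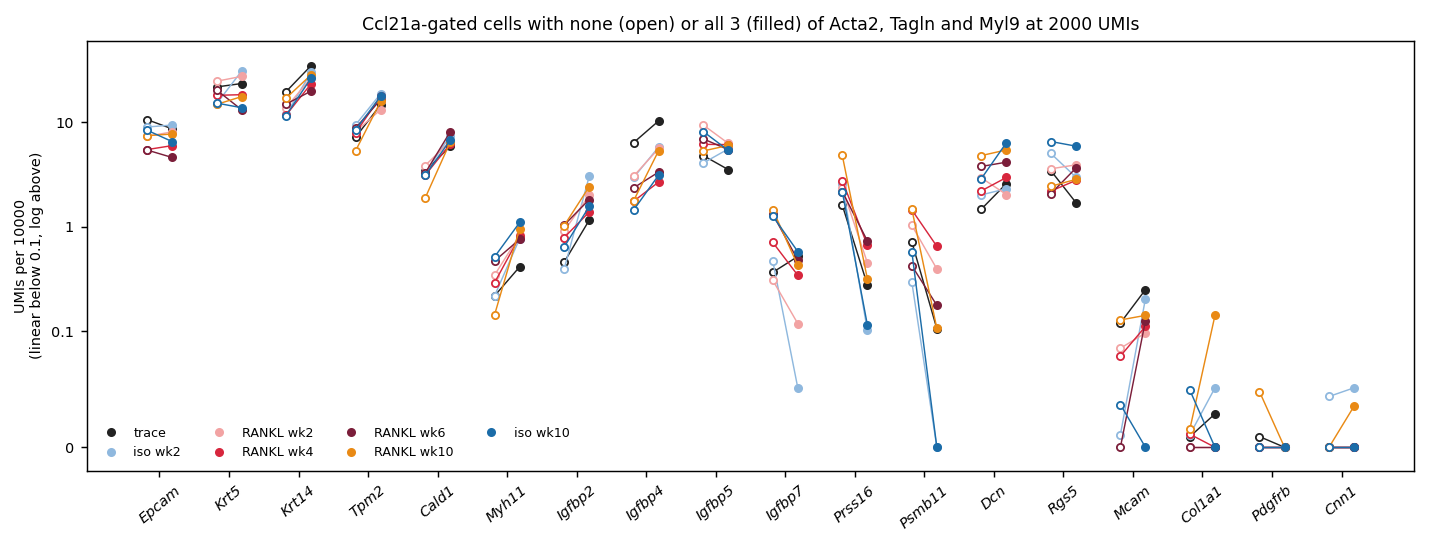
Levels in *Ccl21a*-gated cells with none (open) or all 3 (filled) of *Acta2*, *Tagln* and *Myl9* at 2000 UMIs, in UMIs per 10000 (log axis, linear below 0.1), one colour per library. *Krt14*, *Tpm2* and *Cald1* lie higher in the filled points of every library and *Prss16* lower, *Dcn* and *Mcam* lie higher in 6 of 7, *Krt5* and *Rgs5* go both ways, and *Col1a1*, *Pdgfrb* and *Cnn1* stay near 0.

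Genes that mark other contractile or stromal cells were read beside these values. In the *Ccl21a* gate 4 to 7 of the 8 mural cell markers (pericytes and smooth muscle of vessels) had UMIs, at a sum of 3.08 to 6.73 UMIs per 10000, but *Rgs5* and *Myh11* made nearly all of it: without them the sum was 0.0848 to 0.295. *Rgs5* had a UMI in 38.1% to 71.3% of *Ccl21a*-gated cells, and *Dcn*, of the fibroblast list, in 39.0% to 59.0%. Over all 3451 cells the other 6 mural genes had 332 UMIs (*Notch3*), 264 (*Mcam*), 13 (*Pdgfrb*), 10 (*Cnn1*), 9 (*Cspg4*) and 0 (*Kcnj8*), against 9757 of *Rgs5* and 1322 of *Myh11*. Of the fibroblast genes *Dcn* had 7949 UMIs, *Fbn1* 813, *Lum* 268, *Col3a1* 200, *Pdgfra* 30, *Col1a1* 29 and *Col1a2* 25. *Fbn1* had a UMI in 9.96% to 29.4% of *Ccl21a*-gated cells. The fibroblast sum was 2.33 to 5.24 with *Dcn* and 0.292 to 0.711 without it. The 6 endothelial markers summed to 0.0193 to 0.122. The 495 cells with all 3 contractile genes held 0 UMIs of *Pdgfrb* and of *Cspg4*, 2 of *Cnn1* and 8 of *Col1a1*. Other genes of these lists stood higher in them than in the 991 cells with none. *Mcam* did in 6 of 7 libraries (median 0.126 against 0.0785 UMIs per 10000), on 56 and 83 UMIs and with intervals apart in 0. *Dcn* did in 6 of 7 (2.95 against 2.88), with intervals apart in 3 of them and also in the 1 library where it was lower. *Myh11* did in 7 of 7 as given above. *Rgs5* was higher in 4 and lower in 3 (2.97 against 3.43), and *Notch3* higher in 3 and lower in 4. The 8 skeletal muscle-like markers summed to 0.369 to 1.15 UMIs per 10000 in the *Ccl21a* gate, with 4 to 8 of them detected. The intermediate filament gene *Des* held 2064 of their UMIs, *Myog* 181, *Acta1* 112 and *Actc1* 50, and *Actc1* was at 0 in 4 libraries. The part of these cell types in the members' values was not tested.

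Among the other genes of the IGF pathway, 8 of 17 had enough UMIs for the comparison of the *Ccl21a* and *Aire* gates, and 1 stood at least 2-fold higher in all libraries, against 4.15% of all genes. That gene was *Htra1*, a secreted protease known to cut IGF-binding proteins, at 3.45-fold to 15.8-fold. None of the 8 stood 2-fold lower throughout. *Pappa*, the pappalysin that cuts IGFBP4, had too few UMIs for the count, with 0 to 6 in the *Ccl21a* gate against 2 to 96 in the *Aire* gate, and its fold had the interval below 1 in 6 of 7 libraries. Its relative *Pappa2* had 0 to 4 against 0 to 99, and *Igfbpl1*, an IGF-binding protein-like gene, 0 to 1 against 0 to 82. In the comparison of week 2 with its isotype control 2 of 12 stood at least 1.5-fold higher (*Stc2*, an inhibitor of the protease that cuts IGFBP4, and *Grb10*, an adaptor that dampens the receptor) and 1 lower (*Igfbp6*). Those shares of the 12 lay near the 15.0% and 9.5% of all genes. At week 10, 2 of 9 stood higher (*Igf1* and *Insr*, against 11.5% of all genes) and 3 lower (*Irs2*, *Igfals* and *Grb10*, against 9.17%), at a median fold of 0.847, so *Grb10* was called in opposite directions at the 2 weeks. At week 2 the median fold of the 12 genes was 1.13, that of the 9 members 0.995 and that of all genes 1.04.

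Of the 33 further contractile and actin genes, 28 could be compared between the gates and 8 stood at least 2-fold higher in the *Ccl21a* gate in all 7 libraries: *Cnn2*, *Myl6*, *Tpm2*, *Tpm4*, *Cald1*, *Flna*, *Csrp1* and *Csrp2*, which bind, cross-link or move actin filaments. Of all 8479 genes 4.15% did so. Without week 6, *Lmod1* and *Vcl* joined them, for 10 of 30. *Actb*, the general cytoskeletal actin, was lower in the *Ccl21a* gate in all 7, at 0.466 to 0.794 of its *Aire*-gate level. At week 2 none of 31 stood 1.5-fold higher than isotype and 6 stood lower (*Tpm1*, *Smtn*, *Vim*, *Vcl*, *Tagln2* and *Tmsb4x*), with a median fold of 0.778, where 15.0% of all genes stood higher and 9.5% lower. At week 10 none of 29 stood higher and 5 lower (*Actg2*, *Des*, *Vim*, *Tagln2* and *Tmsb10*), at a median of 0.893, where 11.5% of all genes stood higher and 9.17% lower, while the members had a median of 1.35 and all genes 1.01.

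Of 12 genes for SRF, its partners and the related YAP and TGF-beta signals, 9 could be compared between gates and 3 stood at least 2-fold higher in the *Ccl21a* gate in all 7 libraries, against 4.15% of all genes: *Mkl2*, a coactivator of SRF, *Yap1*, a coactivator of TEAD factors, and *Cyr61*, a matricellular protein that both pathways are known to induce, at 5.82-fold to 28.4-fold. *Ankrd1* and *Ctgf* had too few UMIs for the count: *Ankrd1* had 0 UMIs in the *Ccl21a* gate of 5 libraries, 1 in the week 2 isotype library and 16 in the lineage tracing library, against 2 to 96 in the *Aire* gates, and *Ctgf* had 0 to 21 in the *Ccl21a* gate and 0 to 2 in the *Aire* gate. *Tgfb2*, a TGF-beta ligand, was lower in 7 of 7 by its interval, at a median of 0.372. *Myocd*, the coactivator of SRF in smooth muscle, had 1 UMI in all *Ccl21a*-gated cells. *Srf* itself was detected in 10.2% to 45.0% of them.

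In the lineage tracing library the *Ccl21a* gate held 326 cells with a ZsGreen UMI and 549 without, at median depths of 10290 and 8121 UMIs. *Igfbp4* stood at 6.93 UMIs per 10000 in the ZsGreen-positive cells and 9.39 in the negative, a fold of 0.738 (0.704 to 0.774), and *Gsn* at 8.71 and 10.7, a fold of 0.811 (0.777 to 0.847). Among the 114 cells with at least 2 ZsGreen UMIs the folds were 0.530 and 0.625. *Igfbp7* was higher in the positive cells, at 1.51-fold (1.21 to 1.89), on 183 and 146 UMIs.

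*Igfbp3* was lower, at 0.748-fold (0.588 to 0.946), and at 0.649 among cells with at least 2 ZsGreen UMIs. *Tagln* (0.923-fold), *Acta2* (0.860) and *Myl9* (0.882) stood slightly lower in ZsGreen-positive cells, as did *Ccl21a* itself (0.828), and *Igfbp2* and *Igfbp5* were at 1.03-fold and 1.04-fold with intervals that include 1. After thinning, *Tagln* was detected in 43.9% of positive and 44.6% of negative cells, and *Igfbp4* in 62.9% and 70.5%. *Gsn* (71.2% and 80.0%) and *Igfbp3* (5.83% and 7.29%) were also detected in fewer positive cells. *Acta2* (40.5% and 38.8%), *Myl9* (25.5% and 23.5%), *Igfbp5* (45.7% and 40.3%), *Igfbp2* (12.3% and 8.74%) and *Igfbp7* (4.60% and 3.28%) were detected in more. In thinned cells the folds of 7 of the 9 genes lay outside their full-depth intervals. *Aire* RNA stood 5.57-fold higher in the positive cells. These are cells of 1 pool, so the intervals hold no spread between mice.

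For each member the genes with the most similar levels were sought over 21 profiles (7 libraries by 3 gates) among 4472 genes, by Pearson's r of log2(level + 0.1). The profiles share libraries, depth and cells, and they mostly order the *Aire* gate below the other gates, so r is a description. *Acta2* lay closest to *Cald1* (0.967), *C1s1* (0.955) and *Col6a2* (0.955). *Tagln* lay closest to *Zfp36l1* (0.970), *Ifitm2* (0.966) and *Myl9* (0.960), and *Myl9* to *4631405K08Rik* and *Myl6* (both 0.971) and *Lifr* (0.963). *Gsn* lay closest to *Isg15* (0.962), *Sulf1* and *F3* (both 0.956).

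Of the IGF-binding proteins, *Igfbp2* lay closest to *Bcam* (0.982), *Wls* (0.978) and *Oat* (0.972), and *Igfbp5* to *Lifr* (0.977), *Ddr1* (0.976) and *4631405K08Rik* (0.975). *Igfbp4* lay closest to *Fst* (0.965), *Grn* (0.963) and *Nfic* (0.958), and *Igfbp3* to *Defb1* (0.902), *Ddr1* (0.900) and *Ajuba* (0.890). *Igfbp7* lay closest to *Cxcl12*, a chemokine of cortical epithelium (0.942), *Diras2* (0.940) and *Prss16*, one of the genes of the cortical gate (0.916). Between members r was highest for *Tagln* with *Myl9* (0.960) and *Igfbp2* with *Igfbp5* (0.959), and lowest for *Igfbp7* with *Acta2* (0.437).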

How the data were processed

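Mouse thymi were digested, enriched on a Percoll gradient, sorted as EpCAM+ CD45- cells and sequenced by droplet scRNA-seq, 7 libraries of 3 pooled thymi each. The authors aligned reads to mm10 and counted UMIs with Cell Ranger 2.2.0, filtered cells in Seurat 2.3.4 and deposited, per library, the natural log of 1 plus the scaled UMIs. The methods give another scale factor, but the scaled values of every cell sum to 10000, and whole UMI counts were recovered from 100% of values within a tolerance of 0.001. No step against doublets is named, and leaving out the deepest 5% of cells was an alternative. Tables that join libraries (10760 cell columns) were left aside, and 0 columns belonged to samples outside the series.

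Groups were taken from the GEO labels. UMIs of gated cells were summed and divided by the UMIs of those cells. A gene entered a fold comparison with at least 20 UMIs over both sides (for gates, in every library), and a gate with at least 20 cells. Where a side had 0 UMIs, 3 counts stood in its place. The calls are folds of 2 (gates) and 1.5 (libraries), with no test, since each group is 1 pool. Cells were thinned to 2000 UMIs without replacement (177 shallower cells left out, 116 of week 4 and 61 of week 6). Genes named are the 9 members, the gate genes, genes of 3 pathway lists and of marker lists, and the 3 genes of highest r to each member. Beyond that rule, up to 10 list genes that passed a fold in every library, or in all but week 6, were named after their values had been seen. The members and all lists were chosen with earlier results of these data known. Python 3.11.15 with numpy 2.4.6, scipy 1.17.1, pandas 2.3.3 and matplotlib 3.10.9 was used, and the fold and interval steps were tested on simulated data. Promoter windows were taken from RefSeq and positions from GENCODE.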

Additional observations from a re-analysis of the deposited data

Results flagged for a closer look

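For 4 of the genes the libraries after anti-RANKL and after isotype antibody differed in opposite directions at week 2 and week 10 within the *Ccl21a* gate, with the counting interval on opposite sides of 1. *Igfbp3* stood at 1.86-fold of isotype at week 2 and 0.725 at week 10, and *Igfbp5* at 1.71 and 0.887. *Acta2* stood at 0.548 at week 2 and 1.46 at week 10, and *Gsn* at 0.549 and 2.22. The difference between the weeks was not tested, since each fold compares 1 pool with 1 pool. The isotype libraries themselves differed 3.14-fold for *Igfbp3* and 1.37-fold for *Igfbp5*, against 0.863 for *Acta2* and 0.899 for *Gsn*. For *Igfbp3* week 2 turned to 0.670 without cells with stromal UMIs, and with the isotype controls exchanged the weeks stood at 0.594 and 2.28. In *Ccl21a*-gated cells of exactly 1 gate the *Igfbp3* level at week 2 was 0.640 after anti-RANKL and 0.138 after isotype. At week 10 these levels were 0.879 and 0.778, so the anti-RANKL level was the higher at both weeks. With exchanged controls *Igfbp5* stood at 1.25 and 1.22, so its opposite directions were lost. Under other filters on stromal UMIs *Acta2* at week 2 reached 0.704 and *Gsn* 0.711, short of 1.5-fold.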

How the results depend on the processing

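Of the 9 genes, 8 stood 2-fold higher in the *Ccl21a* than in the *Aire* gate in every library, and 6 to 8 did under all alternatives but the mean over cells, under which 4 did. In the cortical gate 6 did, and 5 to 8 under the alternatives. At week 2 the 2 genes at least 1.5-fold higher (*Igfbp3*, *Igfbp5*) became 1 with stricter gates (*Igfbp3*), thinned cells or cells with fibroblast, mural or endothelial UMIs left out (*Igfbp5*), or the other isotype control (*Igfbp4* in place of both). The 3 lower genes (*Igfbp7*, *Acta2*, *Gsn*) became 5 with the other control. *Gsn* was lost at 0.711 without cells with stromal UMIs, *Acta2* at 0.704 when that filter did not count *Dcn*, *Rgs5* and *Myh11*, and *Igfbp7* at 0.683 without the deepest cells. At week 10 the 2 higher genes became 1 with stricter gates, thinned cells, the mean over cells, cells with fibroblast, mural or endothelial UMIs left out or the deepest cells left out, and 5 with the other control. The lower genes at week 10 went from 0 to 1 (*Igfbp3*) with stricter gates, thinned cells, the mean over cells or cells with stromal UMIs left out. *Igfbp3* at week 2 moved in both directions, and the cause was not tested. In *Ccl21a*-gated cells of exactly 1 gate its level was 0.640 after anti-RANKL against 0.138 after isotype. Its fold turned from 1.86 to 0.594 with the other control and to 0.670 without cells with fibroblast, mural or endothelial UMIs. That filter kept 43 of the 160 *Ccl21a*-gated cells of the week 2 isotype library, because *Dcn*, *Rgs5* and *Myh11* were widely held. Not counting those 3 genes, an alternative chosen after seeing the data as was the omission of week 6, it kept 137, and *Igfbp3* and *Igfbp5* were again higher. The week 4 *Aire* gate fell below 20 cells in 4 of the alternatives, which then used 6 libraries. No paired test was run, since the 2 pairs of anti-RANKL and isotype libraries matched by week and age hold 1 library on each side. Depth limits a missing UMI: shares at 2000 UMIs rest on few molecules of *Igfbp3* and *Igfbp7*.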
